A study of Mus musculus with 8 samples.

Results

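BCR-ABL1 bone marrow cells and stimulated splenic B cells, both sorted as positive for an AID reporter, were compared here over 11851 autosomal genes. AID, activation-induced cytidine deaminase, converts cytosines of immunoglobulin genes to uracil, from which antibody class switching and hypermutation follow, and the reporter marks cells that express it with GFP. The comparison used 4 of the 8 arrays of the series: the 2 arrays of GFP-positive BCR-ABL1 cells and the 2 arrays of GFP-positive splenic B cells treated with LPS and IL-4. The 4 arrays of the GFP-negative fractions of the same sources entered the fit for its estimate of error. Every group carries the reporter. The BCR-ABL1 source is labelled as bone marrow of the reporter line and the other source as its spleen. The groups thus differ at once in BCR-ABL1, tissue, B cell stage and the LPS and IL-4 treatment, which the titles give only for spleen. The parts of these in any difference cannot be told apart here. How BCR-ABL1 was introduced, how many cell lines or mice were used, and what strain, age and sex they had is not stated in the labels. Nothing says that the replicates came from separate mice or cultures, so p-values reflect the spread among single arrays, which may be technical.

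As background, BCR-ABL1 is a fusion kinase that is always active and signals through STAT5, PI3K, RAS and SRC-family kinases, and in B lymphoid cells it gives a leukaemia held near the pre-B stage. A pre-B cell cuts and joins its immunoglobulin genes with the RAG proteins and tests the new heavy chain in a receptor with a surrogate light chain. A mature splenic B cell given LPS, a ligand of Toll-like receptor 4, and the cytokine IL-4 enters the cell cycle, turns on NF-kB and STAT6 target genes, presents antigen on MHC class II and switches its heavy chain class.

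The 2 sources differed at about every other gene. Of 11851 autosomal genes, 5955 (50.2%) had an adjusted p under 0.05 in limma with Benjamini-Hochberg adjustment over all 12223 genes tested. Of these, 2921 (24.6%) were higher in the BCR-ABL1 arrays and 3034 (25.6%) were lower. By at least 2-fold, 996 (8.40%) were higher and 839 (7.08%) were lower, and by at least 16-fold 99 were higher and 101 lower. The median difference over all genes was -0.049 on the log2 scale. Replicates of the GFP-positive groups lay close together. The median absolute log2 difference between the 2 arrays of a group was 0.067 for BCR-ABL1 and 0.098 for spleen. The Spearman correlation over all probe sets was 0.996 and 0.994. Between the sources the correlation averaged 0.954. In the GFP-negative groups, which also enter the error estimate, the median difference was 0.087 for BCR-ABL1 and 0.161 for spleen. The correlations there were 0.996 and 0.984.

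**Figure D1:**
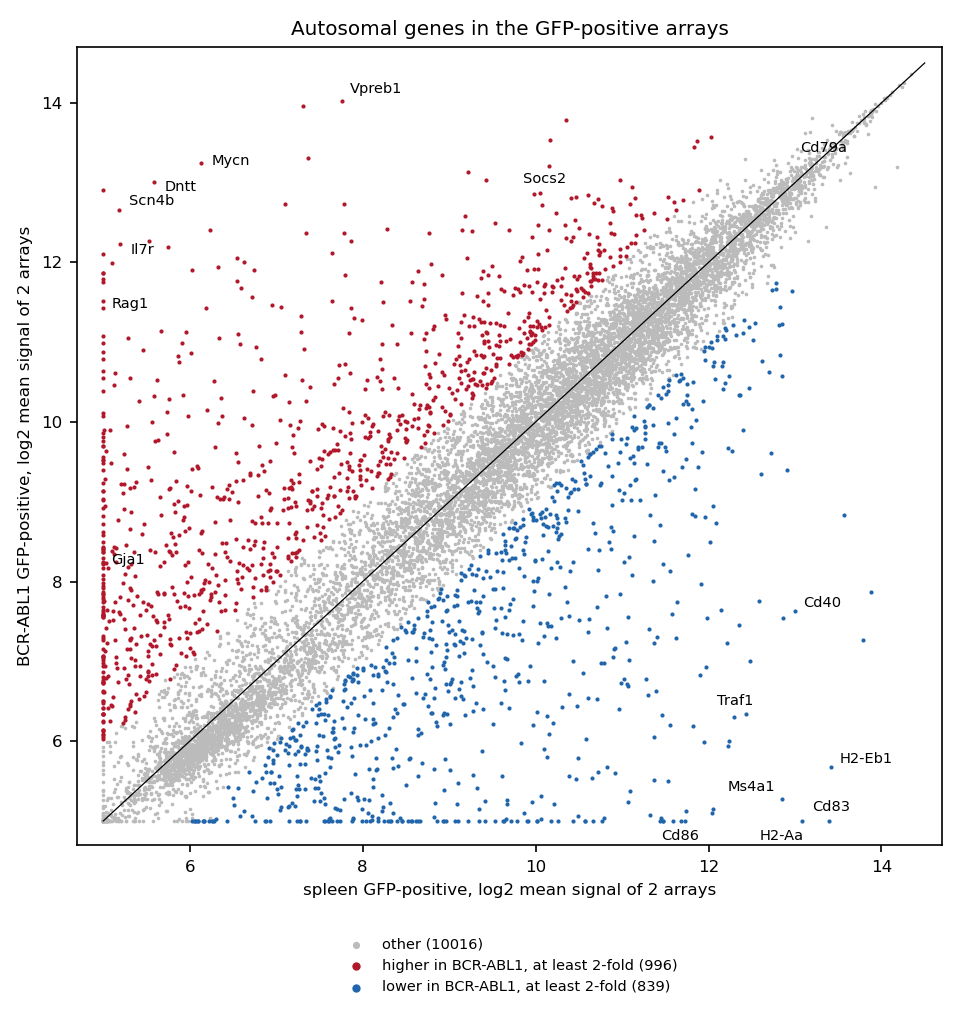
Mean signal of each autosomal gene on log2 scales, spleen GFP-positive arrays on the x axis and BCR-ABL1 GFP-positive arrays on the y axis, each the mean of 2 arrays. Red points are the 996 genes higher in BCR-ABL1 cells and blue points the 839 genes lower, both at least 2-fold with an adjusted p under 0.05, and the lines of points at a log2 value of 5 are genes at the floor of 32.

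In what follows, a pair of signals gives replicates 1 and 2 of the BCR-ABL1 arrays, and the pair after "against" gives replicates 1 and 2 of the spleen arrays, after quantile normalization. Values under 32 were set to 32, so 32 means at the floor. A value in brackets is the log2 difference, BCR-ABL1 minus spleen, ± its standard error (n = 2 arrays against 2), and a gene is called higher or lower only with an adjusted p under 0.05. Where 1 group lay at the floor in both arrays, the difference is given as a bound. In bulk RNA, fewer cells of a type and less RNA per cell cannot be told apart. Signals of different genes come from different probes and are not compared. The counts of each list stand beside 24.6% higher and 25.6% lower among all autosomal genes, 8.40% and 7.08% by at least 2-fold.

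Both groups carried the transcripts that define the B lineage. Cd79a, a signalling chain of the B cell receptor, read 10188 and 10521 against 7988 and 7960.4 (0.38 ± 0.03), and its partner Cd79b read 9454 and 9017 against 10085 and 9841 (-0.11 ± 0.036). The Cd79b call was lost without BCR-ABL1 GFP-positive replicate 2, either spleen GFP-positive array or either BCR-ABL1 GFP-negative array. The value there ran from -0.13 to -0.077. It was also lost in the 4 GFP-positive arrays alone (limma adjusted p = 0.0673), without the trend (limma adjusted p = 0.203) and without the filter (limma adjusted p = 0.0928). The adaptor Blnk read 7318 and 7132 against 5582 and 5444 (0.39 ± 0.042) and the lineage factor Ebf1 3654 and 3377 against 2521 and 2621 (0.45 ± 0.053, 1.16 as the mean of its probe sets). The receptor chains, the adaptor and Ebf1 thus lay at a high signal in all 4 arrays, with differences under 2-fold except for Ebf1 when its probe sets were averaged. Of 18 pan-B genes tested, 9 were higher and 7 lower in BCR-ABL1 cells, with a median of 0.11, but only 1 and 4 by at least 2-fold. The SRC-family kinase Blk was the one higher gene past 2-fold, at 4797 and 4932 against 2307 and 2244 (1.1 ± 0.044). The lower ones included the inhibitory receptors Cd22, at 218 and 212 against 6704 and 5555 (-4.82 ± 0.092), and Cd72, at 1220.0 and 1174 against 3464 and 3492 (-1.54 ± 0.054). Pax5, the B cell commitment factor, read 285 and 307 against 172 and 187 (0.72 ± 0.19, 0.17 as the mean of its probe sets), a call lost without any 1 of the 4 GFP-positive arrays (limma adjusted p from 0.0505 to 0.0830) and when its probe sets were averaged.

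The genes with which a B cell precursor builds and tests its receptor were higher in the BCR-ABL1 arrays. Of 14 tested genes of the pre-B cell receptor and V(D)J recombination list, 11 were higher and 3 lower, 10 and 1 by at least 2-fold, with a median of 2.87. Dntt, the polymerase that adds untemplated bases at the joints, read 8408 and 8021 against 53.9 and 42.7 (7.42 ± 0.11). Vpreb1, a chain of the surrogate light chain, read 16588 in both against 233 and 199.8 (6.27 ± 0.10), equal in both BCR-ABL1 arrays because they held the same rank. Vpreb3, a chaperone of the immunoglobulin light chains, read 11805 and 11924 against 1085 and 1210.1 (3.37 ± 0.068). Both recombinase genes were at the floor in spleen: Rag1 read 2849 and 2646 against 32 in both (at least 85.8-fold higher) and Rag2 891 and 849 against 32 in both (at least 27.2-fold higher). Lig4, the ligase that seals the breaks, is not in this list. It is counted among the class switch and mutation repair genes below, where 7 of 32 were higher and 9 lower. Lig4 read 1101 and 1075 against 331 and 301 (1.78 ± 0.27). The groups did not overlap at any of the genes named in this paragraph, as at 9480 (80.0%) of all autosomal genes.

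The other surrogate light chain gene, Igll1, had probe sets that disagreed. The one with the higher mean log2 signal over all 8 arrays read 599 and 476 against 1021 and 673 (-0.63 ± 0.21). Its call was lost without BCR-ABL1 GFP-positive replicate 2, spleen GFP-positive replicate 1 or any 1 of the GFP-negative arrays. The value there ran from -0.64 to -0.33. Without spleen GFP-positive replicate 1 the value was -0.33. The other read 7566 and 7092 against 55.0 and 65.1 (6.94 ± 0.16). The direction of Igll1 therefore depended on the probe set, and it counts as lower in the list above only through the first. The transcription factors of the precursor stage were higher: Sox4 read 5131 and 4759 against 60.004 and 32 (6.82 ± 0.43, 1 array at the floor, 4.0 as the mean of its probe sets), Erg 1255 and 1341 against 65.97 and 55.7 (4.42 ± 0.14), Lef1 5503 and 4754 against 1114 and 872 (2.38 ± 0.12) and Foxo1, which drives Rag transcription, 5229 and 5348 against 1806 and 1943 (1.5 ± 0.061). Irf8 (-0.82 ± 0.038) and Ikzf3 (-1.02 ± 0.051), the factor Aiolos that increases as pre-B cells mature, were lower.

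Receptors of early progenitors followed, with exceptions. Of 13 tested, 9 were higher and 2 lower, 8 and 2 by at least 2-fold, with a median of 2.02. Il7r, the receptor chain on which mouse pre-B cells depend, read 4868 and 4776 against 32.6 and 40.6 (7.05 ± 0.10). The surface enzymes Bst1 and Enpep, the latter known as BP-1, read 6511 and 7063 against 207 and 235 (4.94 ± 0.08) and 950.2 and 713 against 32 in both (at least 25.7-fold higher). The receptor Cd93 read 8437 and 8272 against 676 and 704 (3.6 ± 0.082). Csf2rb, the beta chain shared by the receptors of several haematopoietic cytokines, read 5450.2 and 5448 against 1095 and 1184 (2.26 ± 0.089), and its near copy Csf2rb2 3503 and 3837 against 222 and 223 (4.04 ± 0.10). Probes of the pair may read each other. Flt3, the growth factor receptor of early lymphoid progenitors, went the other way and read 134 and 132 against 1914 and 1884 (-3.84 ± 0.17). Cd9 (-1.07 ± 0.11) was lower as well.

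Transcription factors of early lineages were split. Of 23 tested, 9 were higher and 6 lower, 4 and 3 by at least 2-fold, with a median of 0.01. The share of lower genes was near the 25.6% of all autosomal genes. Myb, needed for pro-B cells, read 8464 and 8369 against 2057 and 1974 (2.06 ± 0.043), Runx1 2579 and 2593 against 593 and 562 (2.16 ± 0.081), Gfi1b 511 and 519.9 against 66.1 and 50.3 (3.16 ± 0.15) and the inhibitor of E proteins Id3 3086 and 3163 against 1236 and 1385 (1.26 ± 0.074). Lmo2, a haematopoietic stem cell and germinal centre factor, was lower at 175 and 177 against 5304 and 5135 (-4.89 ± 0.10), as were Gfi1, at 101 and 118 against 562 and 489 (-2.26 ± 0.16), and Cebpb, at 35.8 and 41.6 against 273 and 243 (-2.74 ± 0.14, -1.58 as the mean of its probe sets). Spi1, which encodes PU.1, read 633 and 622 against 622 and 625 (0.01 ± 0.13, limma adjusted p = 0.97).

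**Figure D2:**
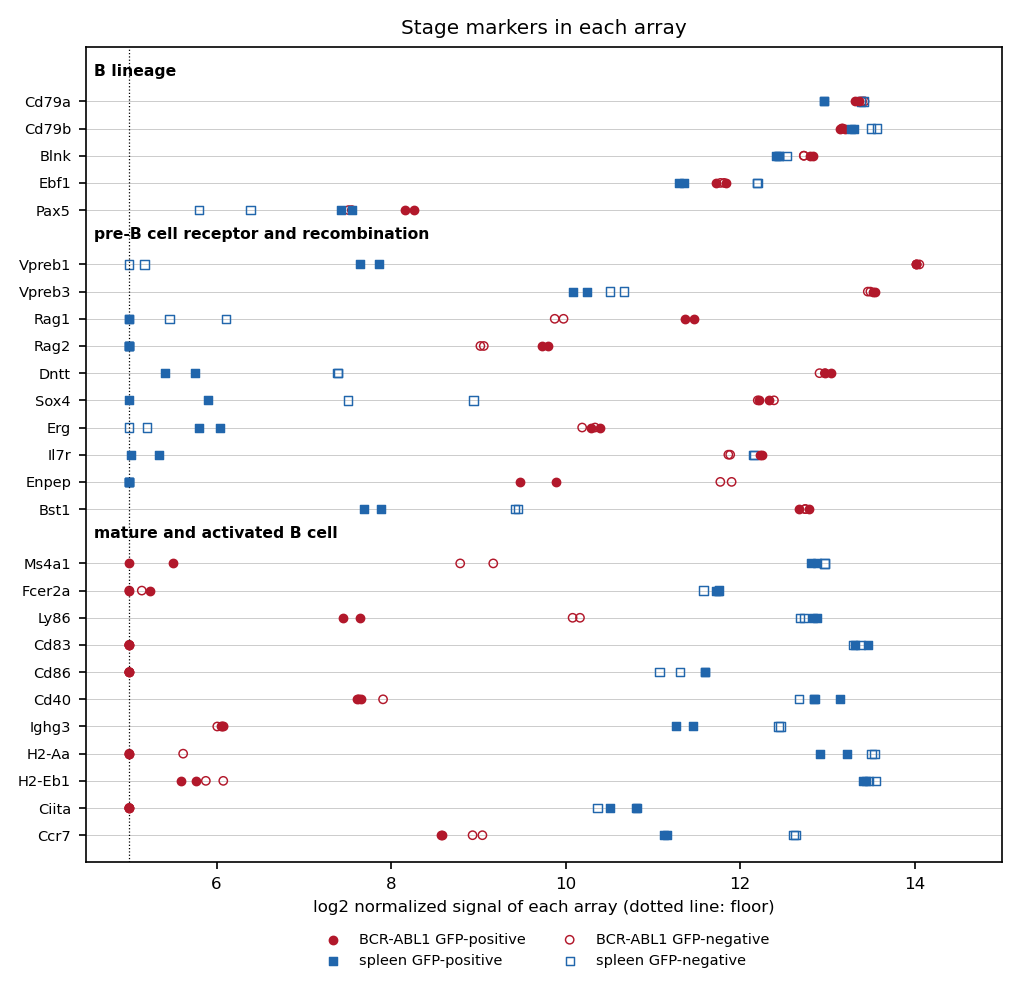
Normalized log2 signal of stage marker genes in each of the 8 arrays, filled symbols for the GFP-positive arrays compared here and open symbols for the GFP-negative arrays, with the floor at a log2 value of 5 as a dotted line. The B lineage genes lie together in the GFP-positive arrays, the precursor genes lie to the right for BCR-ABL1 (Dntt at 8408 and 8021 against 53.9 and 42.7) and the mature genes to the right for spleen (Cd83 at 10179 and 11286 against the floor).

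Surface genes of mature B cells were mostly lower in the BCR-ABL1 arrays, 2 of them at the floor in both arrays. Of 20 tested, 17 were lower and 3 higher, 13 and 2 by at least 2-fold, with a median of -1.38. Ms4a1, which encodes CD20, read 32 and 45.4 against 7560.3 and 7192 (-7.6 ± 0.17, 1 array at the floor). Cd83, a marker of activated B cells, read 32 in both against 10179 and 11286 (at least 335-fold lower). Fcer2a, the low affinity IgE receptor CD23, read 37.7 and 32 against 3387 and 3444 (-6.62 ± 0.13, 1 array at the floor), and Cd200 32 in both against 1665 and 1373 (at least 47.2-fold lower). Ly86, the partner of the LPS-responsive receptor Cd180, read 199.7 and 174 against 7556 and 7305 (-5.32 ± 0.078), and Cd180 itself 217 and 212 against 608 and 580.2 (-1.47 ± 0.18). The BAFF receptors were lower by less: Tnfrsf13c read 2438 and 2377 against 7960.4 and 6767 (-1.61 ± 0.071) and Tnfrsf13b 2197 and 2339 against 4786 and 4603 (-1.05 ± 0.092). The antigen-presenting molecule Cd1d1 was higher, at 1449 and 1591 against 264 and 309 (2.41 ± 0.10), and so was Cd5, at 216 and 246 against 47.6 and 56.5 (2.15 ± 0.17). Lgals1, which encodes a galectin, differed little (0.31 ± 0.047).

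All 4 tested genes of the immunoglobulin list were lower, 3 by at least 2-fold, with a median of -2.97. They were the heavy chain constant genes Ighm, Ighg3 and Igha and the joining chain gene Jchain. Of the 12 members of the list, 8 had no probe set of their own, among them Ighg1, Ighe, Ighd and Igkc. Ighg3, a switched heavy chain that LPS induces, read 66.1 and 66.8 against 2467 and 2815 (-5.31 ± 0.10). Igha read 87.7 and 61.3 against 674 and 782 (-3.31 ± 0.18), and Jchain, the joining chain of IgM and IgA, 859.8 and 735 against 4942 and 4922 (-2.63 ± 0.082). Ighm had 10 probe sets tested, with differences from -8.22 to -0.40. Its brightest probe set read 7432 and 8402 against 15337 and 15857 (-0.98 ± 0.059), and the one with the largest difference read 32 in both against 9133 and 9929. Ighm transcripts were therefore measured at a high signal in BCR-ABL1 cells by some probe sets and at the floor by 4 others. Kappa and lambda light chain sequences were also lower: the probe set annotated to Igk read 162 and 146 against 14165 and 14011 (-6.52 ± 0.076) and that of Iglv1 58.9 and 64.2 against 4527 and 5055 (-6.28 ± 0.10). Immunoglobulin genes share sequence, so which family member a probe set reads is uncertain.

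The MHC class II pathway was lower in the BCR-ABL1 arrays from its regulator down. Of 16 genes tested, 13 were lower and 0 higher in limma (0 higher at an unadjusted p under 0.05), 9 lower by at least 2-fold, with a median of -1.39. Ciita, the coactivator that class II promoters need, read 32 in both against 1455 and 1798 (at least 50.5-fold lower). The chains H2-Aa and H2-Eb1 read 32 in both against 9565 and 7723 (at least 269-fold lower) and 54.2 and 48.2 against 10824 and 11089.9 (-7.74 ± 0.10). H2-Ab1 read 443 and 471 against 12036 and 12246 (-4.73 ± 0.058), so it was lower but above the floor. The peptide loading genes differed by less: H2-DMa read 1562 and 1604 against 6469.8 and 6846 (-2.07 ± 0.074), H2-DMb2 2378 and 2394 against 7242 and 7137 (-1.59 ± 0.04) and Cd74, the invariant chain, 9292 and 9540.4 against 18576 and 18650.4 (-0.98 ± 0.035). Of the RFX complex that binds the same promoters, Rfxap read 802 and 781 against 807 and 885 (-0.094 ± 0.092, limma adjusted p = 0.437) and Rfxank 786 and 808 against 752 and 855 (-0.01 ± 0.11, limma adjusted p = 0.964), and neither passed.

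Class II promoters carry a Y box, an inverted CCAAT box bound by NF-Y, and the upstream sequences of H2-Aa and H2-Eb1 are shown because these 2 genes had the largest differences of the pathway. Each is the 250 bases before the annotated start in RefSeq's GRCm38.p6, printed along the gene's strand, with capitals at each ATTGG or its reverse complement.
H2-Aa: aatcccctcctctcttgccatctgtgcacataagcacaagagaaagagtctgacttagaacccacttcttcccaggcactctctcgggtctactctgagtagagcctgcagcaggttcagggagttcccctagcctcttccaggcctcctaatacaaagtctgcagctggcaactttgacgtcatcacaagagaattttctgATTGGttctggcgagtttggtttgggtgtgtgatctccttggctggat
H2-Eb1: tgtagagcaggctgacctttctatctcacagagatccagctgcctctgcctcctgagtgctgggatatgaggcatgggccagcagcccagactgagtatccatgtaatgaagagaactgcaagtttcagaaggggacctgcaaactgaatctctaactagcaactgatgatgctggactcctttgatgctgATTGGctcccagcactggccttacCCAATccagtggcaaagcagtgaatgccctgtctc
The first spans chr17:34287824-34288073, minus strand, and its match begins 48 bases before the start. The second spans chr17:34305617-34305866, plus strand, with matches that begin 59 and 35 bases before the start. Of the 12 tested genes of the list with an entry, 11 held ATTGG on either strand in these 250 bases at 1 or more of their listed starts, against 37.5% of all 27025 genes in the promoter table. A match of letters is a description of the sequence and not evidence of binding in these cells.

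MHC class I genes were lower by small amounts. Of 13 tested, 10 were lower and 0 higher in limma (0 higher at an unadjusted p under 0.05), with log2 differences from -0.86 to -0.10 and a median of -0.36. The peptide transporter Tap1 read 3386 and 3892 against 6155 and 7083 (-0.86 ± 0.088) and the proteasome subunit Psmb9 4971 and 5191 against 7526 and 8259 (-0.63 ± 0.062). The heavy chain H2-K1 read 7008 and 6956 against 9885 and 9400.1 (-0.47 ± 0.041).

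Costimulatory and activation markers were mostly lower. Of 23 tested, 15 were lower and 2 higher, 10 and 1 by at least 2-fold, with a median of -0.90. Cd86, a ligand of CD28, read 32 in both against 3094 and 3092 (at least 96.7-fold lower), and its relative Cd80 56.2 and 54.9 against 355 and 393 (-2.75 ± 0.16). Cd40, the receptor for T cell help, read 201 and 196 against 7350.1 and 9069 (-5.36 ± 0.13). The death receptor Fas read 263 and 299 against 2933 and 3099.6 (-3.43 ± 0.14), Slamf1 40.4 and 33.6 against 837 and 797 (-4.47 ± 0.16) and Ctla4 142 and 117 against 2011 and 2333 (-4.07 ± 0.14). The PD-1 ligands Cd274 and Pdcd1lg2 read 578 and 553 against 2002 and 1996 (-1.82 ± 0.077) and 56.5 and 52.9 against 537 and 455 (-3.18 ± 0.27). Tnfrsf18, which encodes GITR, was the gene higher by at least 2-fold, at 1138 and 1167 against 445 and 409 (1.43 ± 0.095).

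Cytokine and chemokine genes were more often lower. Of 25 tested, 16 were lower and 5 higher, 11 and 3 by at least 2-fold, with a median of -0.84, and 5 were at the floor in both BCR-ABL1 arrays. Il6 read 32 in both against 692 and 672 (at least 21.3-fold lower) and Il10 32 in both against 552 and 374 (at least 14.2-fold lower). The chemokines Ccl5 and Ccl3 read 32 in both against 2798 and 2882 (at least 88.7-fold lower) and 32 in both against 573 and 623 (at least 18.7-fold lower). Ebi3, a subunit of cytokines of the family of IL-12, read 76.6 and 85.5 against 5336 and 5766 (-6.1 ± 0.14), and Cxcl10 33.8 and 32 against 1706 and 1844 (-5.75 ± 0.13, 1 array at the floor). Against this, 3 secreted factors were higher by at least 2-fold: Lta, which encodes lymphotoxin alpha, read 5244 and 5638 against 827 and 831 (2.71 ± 0.14), Tgfb1 3049 and 3236 against 1048 and 1137 (1.53 ± 0.076) and the chemokine Ccl25 3726 and 3901 against 382 and 419 (3.25 ± 0.17, 1.9 as the mean of its probe sets).

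Homing and egress receptors went both ways. Of 30 tested, 7 were higher and 13 lower, 4 and 11 by at least 2-fold, with a median of -0.23. The share of higher genes was near the 24.6% of all autosomal genes. Higher genes included Cxcr4, the receptor that holds precursors in bone marrow, at 5478 and 4958 against 2378 and 2189.6 (1.19 ± 0.077), and the integrin chains Itga4 and Itga6, at 5457 and 5439 against 2470.3 and 2395 (1.16 ± 0.04) and 3465 and 3322 against 411 and 424 (3.02 ± 0.073). Lower genes included receptors that guide mature B cells in lymphoid tissue: Ccr7 read 384 and 379 against 2230.0 and 2294 (-2.57 ± 0.07), Cxcr5 1222 and 1238 against 3386 and 3466 (-1.48 ± 0.078), Ccr6 32.5 and 36.3 against 869 and 1002 (-4.76 ± 0.13) and Gpr183 32 in both against 2682 and 3007 (at least 88.7-fold lower). Klf2, a factor of quiescent lymphocytes, was lower too, at 304 and 303 against 1149.9 and 1287 (-2.0 ± 0.12).

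NF-kB genes were lower almost throughout. Of 22 tested, 19 were lower and 2 higher, 11 and 1 by at least 2-fold, with a median of -1.02. Of the subunits, Rel read 283 and 276 against 1336 and 1356 (-2.27 ± 0.10), Relb 82.3 and 82.8 against 1037 and 1040.3 (-3.65 ± 0.12), Nfkb2 249 and 267 against 2678 and 2565 (-3.35 ± 0.10) and Rela 1081 and 972 against 1413 and 1411 (-0.46 ± 0.079). The target genes Traf1 and Bcl3 read 78.6 and 79.3 against 4680.4 and 5359 (-5.99 ± 0.11) and 97.5 and 100.5 against 2615 and 2751 (-4.76 ± 0.10). The inhibitors Nfkbia (-0.89 ± 0.032, -1.39 as the mean of its probe sets), Nfkbie (-1.15 ± 0.065) and Tnfaip3 (-0.49 ± 0.065) were lower, as was the survival gene Birc3 (-1.42 ± 0.061). The higher genes were the cytokines Lta, given above, and Tnf, at 786 and 742 against 413 and 403 (0.90 ± 0.12). Ikbkb, the kinase of the pathway, read 3209 and 3179 against 3240.1 and 3276 (-0.029 ± 0.053, limma adjusted p = 0.697).

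The 250 bases upstream of Nfkb2 are shown as an example of an NF-kB motif in a lower gene, with capitals at the match to GGGANNTTCC or its reverse complement.
Nfkb2: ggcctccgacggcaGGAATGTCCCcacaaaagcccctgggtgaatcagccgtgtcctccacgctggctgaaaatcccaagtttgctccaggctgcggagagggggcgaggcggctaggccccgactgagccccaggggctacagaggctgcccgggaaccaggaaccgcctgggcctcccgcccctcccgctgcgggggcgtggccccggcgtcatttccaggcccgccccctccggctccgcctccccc
It spans chr19:46305445-46305694, plus strand, from the 1 of its 3 listed starts that holds the motif, and the match begins 236 bases before that start. Of 19 genes of the list with an entry, 3 held the motif at a listed start, against 1.36% of all genes.

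Toll-like receptors and their adaptors were lower in part. Of 18 tested, 12 were lower and 2 higher, 6 and 0 by at least 2-fold, with a median of -0.68. The LPS receptor Tlr4 read 536 and 461 against 574 and 538 (-0.16 ± 0.14, limma adjusted p = 0.394), though the mean of its probe sets was lower (-0.63, limma adjusted p = 0.0017), while its partner Ly96, the protein MD-2, read 448 and 465 against 1297 and 1119.8 (-1.4 ± 0.14). Tlr1 read 111 and 108 against 2455 and 2524 (-4.51 ± 0.091), Irak2 32 in both against 354 and 349 (at least 10.98-fold lower) and the adaptor Myd88 629 and 618 against 1123 and 1168 (-0.88 ± 0.10).

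Interferon response genes were lower, and by wide margins for the antiviral effectors. Of 38 tested, 33 were lower and 3 higher, 21 and 1 by at least 2-fold, with a median of -1.05. Mx1, a GTPase that blocks viral replication, read 80.1 and 88.5 against 2109 and 1879 (-4.56 ± 0.14). Oasl1, Oasl2 and Oas1a, of the oligoadenylate synthetase family, read 103 and 108 against 2176 and 2087 (-4.34 ± 0.12), 84.4 and 89.8 against 1396 and 1461 (-4.04 ± 0.14) and 402 and 389.8 against 1889.6 and 1918 (-2.27 ± 0.10). Rsad2, which encodes viperin, read 125 and 127 against 1704 and 1764 (-3.78 ± 0.11), and Ifit1 197 and 184 against 1356 and 1315 (-2.81 ± 0.13). The RNA sensor Ifih1 read 215 and 194 against 1733 and 1619 (-3.03 ± 0.17) and the nucleotide hydrolase Samhd1 656 and 695 against 7373 and 7947 (-3.5 ± 0.063). The regulators Irf7, at 252 and 263 against 956 and 1053 (-1.96 ± 0.12), and Stat2, at 564 and 549 against 996 and 972 (-0.82 ± 0.087), were lower as well. The receptor chains Ifngr1 and Ifnar1 were higher, at 1787 and 1757 against 529.6 and 557 (1.71 ± 0.10) and 1844 and 1932 against 1371 and 1426 (0.43 ± 0.085), as was Ifit3, at 593 and 631 against 429 and 455 (0.47 ± 0.10). Ifitm1, which was outside the list and among the 25 largest differences above the floor, was higher at 6668 and 6982 against 157 and 117 (5.65 ± 0.12).

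The upstream bases of Rsad2 and Oas1a are shown because they carry the letters of the interferon response element, GAAANNGAAA on either strand, in capitals.
Rsad2: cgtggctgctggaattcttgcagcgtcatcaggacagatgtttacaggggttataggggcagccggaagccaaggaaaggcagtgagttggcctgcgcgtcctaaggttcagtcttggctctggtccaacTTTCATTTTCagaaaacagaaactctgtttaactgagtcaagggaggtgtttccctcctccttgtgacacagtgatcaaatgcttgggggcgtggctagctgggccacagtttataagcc
Oas1a: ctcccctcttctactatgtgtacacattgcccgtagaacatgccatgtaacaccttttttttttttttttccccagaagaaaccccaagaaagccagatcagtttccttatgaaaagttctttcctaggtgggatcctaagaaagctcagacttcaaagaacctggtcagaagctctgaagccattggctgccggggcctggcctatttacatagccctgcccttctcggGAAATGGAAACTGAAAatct
They span chr12:26456453-26456702, minus strand and chr5:120907526-120907775, minus strand of GRCm38.p6. The match of Rsad2 begins 120 bases before the start, and Oas1a has overlapping matches that begin 20 and 14 bases before it. Of 29 tested genes of the list with an entry, 12 held the motif, against 3.46% of all genes in the table. A pair of further motifs were searched. TCCCNNGGGA, a site of EBF1, was found in 1 of 13 entries of the pre-B list and 0.914% of all genes, and TTCNNNGAA, a STAT site, in 1 of 18 entries of the STAT5 list and 8.13% of all genes.

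The IL-4 and STAT6 response held genes that IL-4 induces in B cells and others that STAT5 shares. Of 16 tested, 3 were higher and 8 lower, 3 and 5 by at least 2-fold, with a median of -0.40. Il4ra, the IL-4 receptor chain, read 375 and 349.8 against 4048 and 4223 (-3.51 ± 0.09), and Nfil3, a factor of IL-4 stimulated B cells, 109 and 119 against 3741 and 3898 (-5.07 ± 0.11). The chemokine Ccl22 read 32.8 and 32 against 1002 and 1131 (-5.04 ± 0.12, 1 array at the floor). Cish and Il2ra, which STAT5 also drives, were higher at 2229 and 2246 against 969 and 988 (1.19 ± 0.083) and 3877 and 3864 against 1858 and 1716 (1.12 ± 0.071, 0.67 as the mean of its probe sets). The highest log2 difference in the list, 2.55, was at another gene, so these 2 do not stand for all of its higher members.

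Of 17 tested genes of the germinal centre and plasma cell programmes, 3 were higher and 8 lower, 1 and 7 by at least 2-fold, with a median of -0.45. Bcl6, the germinal centre repressor that pre-B cells also use, read 188 and 189.6 against 2266 and 2025 (-3.5 ± 0.10). Prdm1, which encodes Blimp-1, read 131 and 108 against 508 and 479.8 (-2.05 ± 0.15), and Batf, needed for class switching, 453 and 469 against 3506 and 3676 (-2.96 ± 0.18). Zbtb32 read 64.1 and 63.4 against 4184 and 3745 (-5.96 ± 0.17) and the octamer factor Pou2f2 187 and 178 against 1435 and 1459 (-2.99 ± 0.10). Mzb1, a chaperone of antibody-making cells, read 9540.4 and 9136 against 9498 and 9233 (-0.0044 ± 0.044, limma adjusted p = 0.958). Sdc1, the gene of CD138, was higher, at 1248 and 1384 against 544 and 508 (1.32 ± 0.077).

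Kinases and adaptors around BCR-ABL1 and the B cell receptor were more often higher. Of 35 tested, 20 were higher and 8 lower, 9 and 2 by at least 2-fold, with a median of 0.30. The genes whose products make up the fusion were both higher, Abl1 at 1571 and 1639 against 575 and 586 (1.47 ± 0.095) and Bcr at 933 and 1017 against 401 and 395 (1.29 ± 0.13). Whether their probes lie in the parts kept in the fusion is unknown here, so the fusion transcript was not measured as such. The docking proteins Gab1 and Gab2, the second of which BCR-ABL1 uses to reach PI3K and RAS, read 917 and 928 against 51.1 and 55.2 (4.12 ± 0.12) and 629 and 594 against 61.7 and 53.4 (3.41 ± 0.15, 1.89 as the mean of its probe sets). Plcg1 read 7070.3 and 7106 against 1739 and 1649.8 (2.07 ± 0.04, 0.64 as the mean of its probe sets), while Plcg2, the phospholipase of B cell receptor signalling, differed less, at 4595 and 4462 against 3509.5 and 3463 (0.38 ± 0.062). The kinases Tec and Fyn were higher, at 1809 and 1832 against 526 and 583 (1.72 ± 0.074) and 3620.2 and 3493 against 1453 and 1409.9 (1.31 ± 0.069). Malt1, which links the receptor to NF-kB, was lower at 438 and 376 against 1176 and 1257 (-1.58 ± 0.19), as was its partner Bcl10 at 2785 and 2867 against 4734 and 4712 (-0.74 ± 0.044).

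STAT5 targets and regulators of cytokine signalling were higher in part. Of 22 tested, 12 were higher and 6 lower, 6 and 1 by at least 2-fold, with a median of 0.31. Socs2, a STAT5-induced inhibitor, read 7463 and 7459.6 against 1125 and 994 (2.82 ± 0.067), Osm 793 and 772 against 228 and 234 (1.76 ± 0.13) and the cyclin Ccnd3 7294 and 7213 against 1446 and 1382 (2.36 ± 0.058). Bcl2l1, which encodes BCL-XL, read 923 and 935 against 524 and 484 (0.88 ± 0.13). The STAT genes went the other way, with Stat5a at 2323 and 2274 against 3472 and 3153 (-0.53 ± 0.062, -0.98 as the mean of its probe sets) and Stat3 at 819 and 800.2 against 2328 and 2319 (-1.52 ± 0.066). Phosphoinositide genes were mostly higher, 17 of 26, with 6 lower, 5 and 3 by at least 2-fold, and a median of 0.38. The count of higher genes was 10 when each gene's probe sets were averaged. The catalytic subunits Pik3cg and Pik3cd read 2599 and 2364 against 281 and 229.9 (3.29 ± 0.11) and 6067 and 6499.9 against 2516 and 2755 (1.25 ± 0.061), and Rptor, of the mTOR complex, 1642 and 1745 against 496 and 571 (1.67 ± 0.15). The B cell adaptor Pik3ap1 was lower, at 362 and 316 against 1944 and 1808 (-2.47 ± 0.19).

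Genes that respond to ERK went both ways. Of 29 tested, 10 were higher and 12 lower, 9 and 11 by at least 2-fold, with a median of -0.052. Among higher feedback inhibitors, the phosphatases Dusp6 and Dusp5 read 4363 and 4152 against 671 and 516 (2.86 ± 0.12) and 7086 and 7264 against 1326 and 1400.4 (2.4 ± 0.049), and Spry1 and Spry2, which block RAS activation, 454 and 390.2 against 52.4 and 36.6 (3.27 ± 0.18) and 1929 and 1767 against 471 and 475 (1.96 ± 0.085). The ETS factor Etv5 read 2307 and 2134 against 417 and 336 (2.57 ± 0.12). Among lower immediate early genes, Egr1 read 1154 and 1210.3 against 2477 and 2616 (-1.11 ± 0.064), Egr2 32 and 33.1 against 833 and 778 (-4.63 ± 0.16, 1 array at the floor), Egr3 32 in both against 1086 and 993 (at least 32.5-fold lower) and Fos 115 and 131 against 1002 and 954 (-2.99 ± 0.15). Junb (-1.75 ± 0.16), Atf3 (-2.76 ± 0.19) and Nr4a1 (-1.94 ± 0.13) were lower too, while Jun was higher (0.84 ± 0.065, 0.44 as the mean of its probe sets). Of the feedback phosphatases, Dusp4, at 148 and 152 against 1036 and 1055 (-2.8 ± 0.15), and Dusp10, at 384 and 478 against 1257 and 1359 (-1.61 ± 0.13), were lower. The direction of every gene named here held in all of the alternatives in which it was tested.

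**Figure D3:**
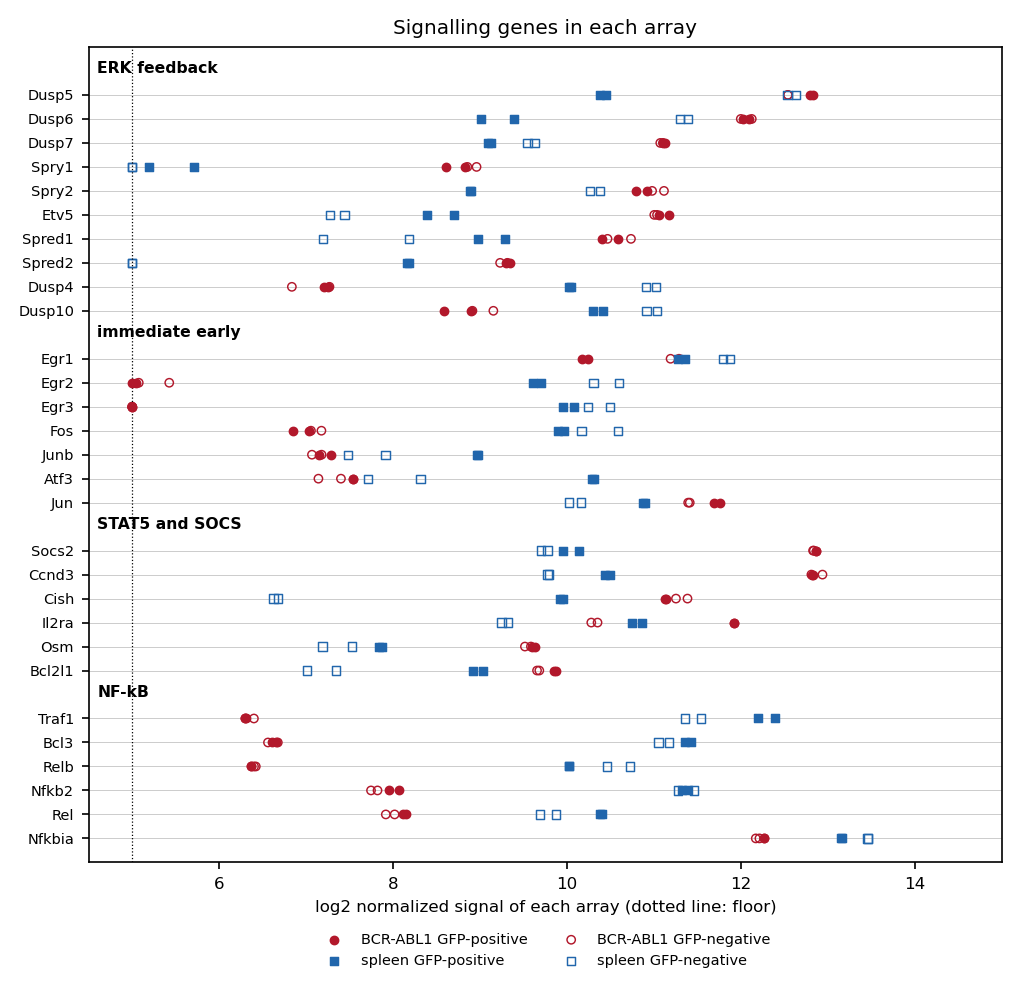
Normalized log2 signal of signalling genes in each of the 8 arrays, with filled symbols for the GFP-positive and open symbols for the GFP-negative arrays and a dotted line at the floor. Of the ERK feedback genes drawn, Dusp6 (4363 and 4152 against 671 and 516) lies to the right for BCR-ABL1 and Dusp4 and Dusp10 lie to the right for the spleen GFP-positive arrays, as do the immediate early genes except Jun and all NF-kB genes drawn.

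Genes of S phase and mitosis were at similar signals in both groups. Of 39 DNA replication genes, 9 were higher and 6 lower, with log2 differences from -0.51 to 0.72 and a median of 0.013, so none was past 2-fold. The lower count was 2 and 3 without BCR-ABL1 GFP-positive replicates 1 and 2, and 11 without either spleen GFP-negative replicate. The higher count was 5 without spleen GFP-positive replicate 1 or BCR-ABL1 GFP-positive replicate 2. Of 38 mitosis genes, 8 were higher and 3 lower, with log2 differences from -0.48 to 0.79 and a median of 0.023. The 8 higher calls became 5 without any 1 of the 4 GFP-positive arrays or BCR-ABL1 GFP-negative replicate 1. The lower count was 1 without BCR-ABL1 GFP-positive replicate 2 or spleen GFP-positive replicate 2. It was 8 without spleen GFP-negative replicate 1 or spleen GFP-negative replicate 2. The cyclin Ccna2 read 5735 and 6031 against 5432 and 5879 (0.058 ± 0.12, limma adjusted p = 0.725), the helicase subunit Mcm6 6227 and 6442 against 6246 and 6304 (0.013 ± 0.04, limma adjusted p = 0.819) and the kinase Plk1 2195 and 2276 against 2248 and 2492 (-0.083 ± 0.24, limma adjusted p = 0.812). Cdk1, the mitotic kinase, was modestly higher, at 6903 and 7096 against 4972 and 5480.1 (0.42 ± 0.088).

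The machinery that opens the cycle differed more. Of 25 G1 cyclins, kinases and inhibitors, 15 were higher and 2 lower, 7 and 0 by at least 2-fold, with a median of 0.50. Besides Ccnd3, its partner kinase Cdk6 read 3524 and 3166 against 1167 and 1171 (1.51 ± 0.072) and Ccnd1 543 and 548 against 176 and 209.9 (1.5 ± 0.13, 0.97 as the mean of its probe sets), while Ccnd2 differed little, at 9675 and 9778 against 7719.7 and 7735 (0.33 ± 0.045, 0.16 as the mean of its probe sets). Skp2, which marks the inhibitor p27 for degradation, read 1182 and 1158 against 434 and 440.1 (1.42 ± 0.13). CDK inhibitors were higher as well: Cdkn1a, which encodes p21, read 6724 and 7008 against 1597 and 1679.8 (2.07 ± 0.051), Cdkn2a, the locus of p16 and ARF, 1794 and 1880.0 against 582 and 687 (1.54 ± 0.11) and Cdkn2c 1889 and 1739.8 against 880.4 and 866 (1.05 ± 0.087).

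The MYC family showed a single large difference. Mycn, the neural and early progenitor member, read 9565 and 9835 against 71.8 and 68.9 (7.11 ± 0.12), while Myc read 3483 and 3654 against 3531 and 3871 (-0.052 ± 0.064, limma adjusted p = 0.542). In the list of MYC network and ribosome biogenesis genes, 5 of 36 were higher and 17 lower, 3 and 2 by at least 2-fold, with a median of -0.16. Nolc1 counted among the higher genes past 2-fold only through its brightest probe set (1.03 ± 0.050). Its other probe sets were called lower (-0.77 ± 0.083 and -0.64 ± 0.13). The MYC antagonist Mxd4 read 4230.1 and 4578 against 964 and 1119 (2.08 ± 0.085). RNA polymerase I subunit Polr1a and the processing factor Rrp12 were lower, at 566 and 576 against 1352 and 1424 (-1.28 ± 0.093) and 447 and 449 against 981 and 1027 (-1.16 ± 0.13). Nucleolar genes such as Fbl (-0.0083 ± 0.04, limma adjusted p = 0.893) and Nop56 (0.0059 ± 0.036, limma adjusted p = 0.92) did not pass.

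p53 response genes went both ways. Of 27 tested, 11 were higher and 8 lower, 6 and 5 by at least 2-fold, with a median of 0.032. Besides Cdkn1a, Zmat3 and Sesn1 were higher, at 4967 and 5273 against 1609 and 1734 (1.62 ± 0.12) and 1905 and 1864 against 874 and 948 (1.05 ± 0.072). The cyclin-like target Ccng1 read 7326 and 6630.4 against 6412 and 5762 (0.20 ± 0.13, limma adjusted p = 0.232), and Gadd45g, at 333 and 386 against 1711 and 1977 (-2.36 ± 0.13), and Gadd45b, at 944 and 1002 against 2222 and 2346 (-1.23 ± 0.072), were lower. Of 15 BCL2 family genes, 6 were higher and 3 lower, 1 and 1 by at least 2-fold, with a median of 0.11, and 3 were higher with probe sets averaged. Bcl2 read 3534 and 3653 against 2199 and 2161 (0.72 ± 0.058), and Bok, a relative of BAX, 701 and 674 against 71.2 and 65.2 (3.34 ± 0.13). Pmaip1, which encodes NOXA, was lower, at 1809.8 and 1893 against 2897 and 2797 (-0.62 ± 0.063).

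Genes of glycolysis and of the response to low oxygen, tested as 1 list, went both ways. Of 27 glycolysis and hypoxia genes, 11 were higher and 6 lower, 5 and 2 by at least 2-fold, with a median of 0.028. Egln3, an oxygen-sensing hydroxylase, read 1513 and 1490.1 against 253 and 167 (2.87 ± 0.19), Vegfa 1194 and 936 against 307 and 228 (2.0 ± 0.18) and Bnip3 6013 and 6057 against 2531 and 2278 (1.33 ± 0.074). The lower genes past 2-fold were the enolase Eno2, at 32 in both against 313 and 296 (at least 9.51-fold lower), and the glucose transporter Slc2a3, at 895 and 1014 against 2148 and 2362 (-1.24 ± 0.08). The enzymes Ldha and Pkm read 12036 and 12469 against 11873 and 12163 (0.028 ± 0.039, limma adjusted p = 0.601) and 8738 and 8867 against 8931 in both (-0.021 ± 0.035, limma adjusted p = 0.664). Of 26 sterol and fatty acid genes, 16 were lower and 1 higher, 3 and 1 by at least 2-fold, with a median of -0.31. The lower ones included Lss, which closes the sterol ring, at 754 and 745 against 2091 and 2262 (-1.54 ± 0.085), Mvd at 843 and 919.6 against 2351 and 2559.9 (-1.48 ± 0.11) and Fdps at 2799 and 2794 against 4909 and 4866 (-0.81 ± 0.048). The higher one was the elongase Elovl6, at 3871 and 4045 against 752 and 693 (2.45 ± 0.30).

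Of 28 genes of serine, one-carbon and amino acid metabolism, 18 were lower and 4 higher, 5 and 2 by at least 2-fold, with a median of -0.24. Ido1, which breaks down tryptophan, read 32 in both against 2713 and 2817 (at least 86.4-fold lower). Cth, of cysteine synthesis, read 331 and 303 against 2089.6 and 2227 (-2.77 ± 0.12), the glycine transporter Slc6a9 280.2 and 316 against 2811 and 2858 (-3.25 ± 0.20, -2.09 as the mean of its probe sets) and the serine enzymes Psph and Shmt2 1463 and 1479.8 against 3010.0 and 2946 (-1.02 ± 0.074) and 2244 and 2240.0 against 3523 and 3364 (-0.62 ± 0.057). The amino acid transporter Slc43a1 was higher, at 721 and 693 against 121 and 108 (2.63 ± 0.12). Endoplasmic reticulum folding and stress genes were lower, 23 of 33 with 1 higher, 6 by at least 2-fold, and a median of -0.34. The degradation factors Edem1 and Derl3 read 789 and 786 against 3962 and 3826 (-2.3 ± 0.076) and 208 in both against 1038 and 967 (-2.27 ± 0.17), and the chaperone Hspa5, which encodes BiP, 6814 and 6738 against 8272 and 8207 (-0.28 ± 0.032, -0.48 as the mean of its probe sets).

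Of 32 class switch and mutation repair genes, which act on AID lesions and switch breaks, 7 were higher and 9 lower, shares near those of all autosomal genes (24.6% and 25.6%), with 2 and 0 by at least 2-fold and a median of -0.015. The lower count was 5 without BCR-ABL1 GFP-positive replicate 1 or spleen GFP-positive replicate 2, and the higher count 4 without spleen GFP-positive replicate 1. Ung, the glycosylase that excises uracil from DNA, read 3067 and 2917 against 2732 and 2522 (0.19 ± 0.15, limma adjusted p = 0.339). It passed in the 4 GFP-positive arrays alone (0.18, limma adjusted p = 0.0240) and without either spleen GFP-negative array (0.19). Trp53bp1, which protects switch breaks, read 2735 and 2378 against 2819 and 2260.2 (0.015 ± 0.12, limma adjusted p = 0.946). Xrcc6, the Ku70 subunit of end joining, was higher, at 3660.0 and 3792 against 1684 and 1642 (1.16 ± 0.056), and so was Lig4, given above. Apobec1, another cytidine deaminase, was lower, at 1594 and 1629 against 2923 and 3055 (-0.89 ± 0.055), and Apobec3 read 8026 and 8118 against 8283 and 8032 (-0.015 ± 0.033, limma adjusted p = 0.745). Of 28 checkpoint, homologous recombination and Fanconi genes, 1 was higher and 9 lower, with log2 differences from -0.84 to 0.54 and a median of -0.28. The lower count was 5 without BCR-ABL1 GFP-positive replicate 1 and 14 without either spleen GFP-negative replicate. The checkpoint kinase Chek1 read 1933 in both against 1838 and 1759 (0.10 ± 0.087, limma adjusted p = 0.356) and Rad17, a checkpoint clamp loader, 1008 and 1013 against 1449 and 1376 (-0.48 ± 0.075).

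Of 22 DNA methylation and chromatin genes, 7 were higher and 9 lower, 2 and 4 by at least 2-fold, with a median of -0.065. The higher count was 3 without BCR-ABL1 GFP-positive replicate 2 or spleen GFP-positive replicate 1. It was 4 without BCR-ABL1 GFP-positive replicate 1, spleen GFP-positive replicate 2, BCR-ABL1 GFP-negative replicate 1 or BCR-ABL1 GFP-negative replicate 2. The Polycomb subunit Cbx2 and the deacetylase Hdac7 were higher, at 722 and 729.6 against 237 and 213 (1.69 ± 0.26) and 2185 and 2491 against 996 and 1145 (1.13 ± 0.11). Satb1, a genome organiser, and Hdac5 were lower, at 1355 and 1238 against 5553 and 4967 (-2.02 ± 0.072) and 167 and 168 against 531 and 607 (-1.76 ± 0.19). Dnmt3a, a de novo DNA methyltransferase, read 3358 and 3630.0 against 3541 and 3953 (-0.10 ± 0.077, limma adjusted p = 0.322).

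Matrix, junction and cytoskeleton genes were more often higher in the BCR-ABL1 arrays. Of 35 tested, 18 were higher and 6 lower, 9 and 4 by at least 2-fold, with a median of 0.22. The collagen chain Col5a2 read 868 and 931 against 32 in both (at least 28.1-fold higher), the membrane gene Emp1 392 and 397 against 32 in both (at least 12.3-fold higher) and Gja1, which encodes connexin 43, 321 and 277 against 32 in both (at least 9.31-fold higher). Sparc, a matrix protein, read 441 and 543 against 32 and 33.1 (3.91 ± 0.33, 1 array at the floor, 1.91 as the mean of its probe sets), and Anxa1 2571 and 2556 against 171 and 141 (4.04 ± 0.10). Anxa2 and Nid1 were lower, at 53.7 and 41.3 against 376 and 423 (-3.08 ± 0.15) and 34.4 and 32 against 475 and 429 (-3.77 ± 0.25, 1 array at the floor). Markers of stromal cells stayed low: Col1a1 read 55.4 and 57.9 against 49.7 and 55.9 (0.10 ± 0.29, limma adjusted p = 0.798), Dcn 40.9 and 46.2 against 40.7 and 42.9 (0.056 ± 0.14, limma adjusted p = 0.781) and Pdgfrb 98.4 and 102 against 103 and 124 (-0.18 ± 0.17, limma adjusted p = 0.431), and of the 5 stromal and endothelial genes tested only Eng differed, at 1175 and 1140.0 against 179 and 259 (2.42 ± 0.18).

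Of 21 myeloid genes tested, 3 were higher and 6 lower, with 9 at the floor in both BCR-ABL1 arrays and 5 in both spleen arrays. The summed myeloid signal was 2239 and 2205 in the BCR-ABL1 arrays and 1764 and 1852 in the spleen arrays. Lyz1 and Lyz2, near-identical lysozyme genes whose probes may read each other, were higher, at 573 and 580.0 against 76.02 and 33.6 (3.51 ± 0.31) and 403 and 395 against 70.8 and 52.04 (2.72 ± 0.17), while Csf1r, Camp, Ngp and Ctsg read 32 in all 4 arrays. Tyrobp and Fcer1g were lower, at 58.98 and 51.6 against 249 and 321 (-2.36 ± 0.18) and 51.8 and 70.3 against 163 and 149.9 (-1.37 ± 0.16). Of 17 T and NK cell genes, 4 were higher and 4 lower, shares near those of all autosomal genes (24.6% and 25.6%). The sums were 4630.3 and 4935 against 4526 and 4723. Cd3g read 32 in all 4 arrays, and Cd3e, the invariant T cell receptor chain, 33.7 and 35.8 against 38.1 and 46.6 (-0.28 ± 0.16, limma adjusted p = 0.182). The adaptor Lat and the NK receptor Klrd1 were higher, at 518 and 548 against 84.998 and 74.4 (2.74 ± 0.12) and 296 and 313 against 32 and 38.98 (3.11 ± 0.14, 1 array at the floor), and Gzma and Il2rb were lower, at 47.9 and 57.7 against 429 and 393 (-2.97 ± 0.14) and 34.6 and 34.2 against 342 and 312 (-3.25 ± 0.14). Of 4 erythroid and megakaryocyte genes, Car2, a carbonic anhydrase, was higher, at 11784 and 11686 against 3778 and 3715 (1.65 ± 0.035). Of the 17 genes of this list 9 fell under the filter on low signals, among them the haemoglobin gene Hba-a1, as did 12 of the 17 stromal and endothelial genes. The part of such cells in the differences of Eng, Car2 and the lysozymes was not tested.

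**Figure D4:**
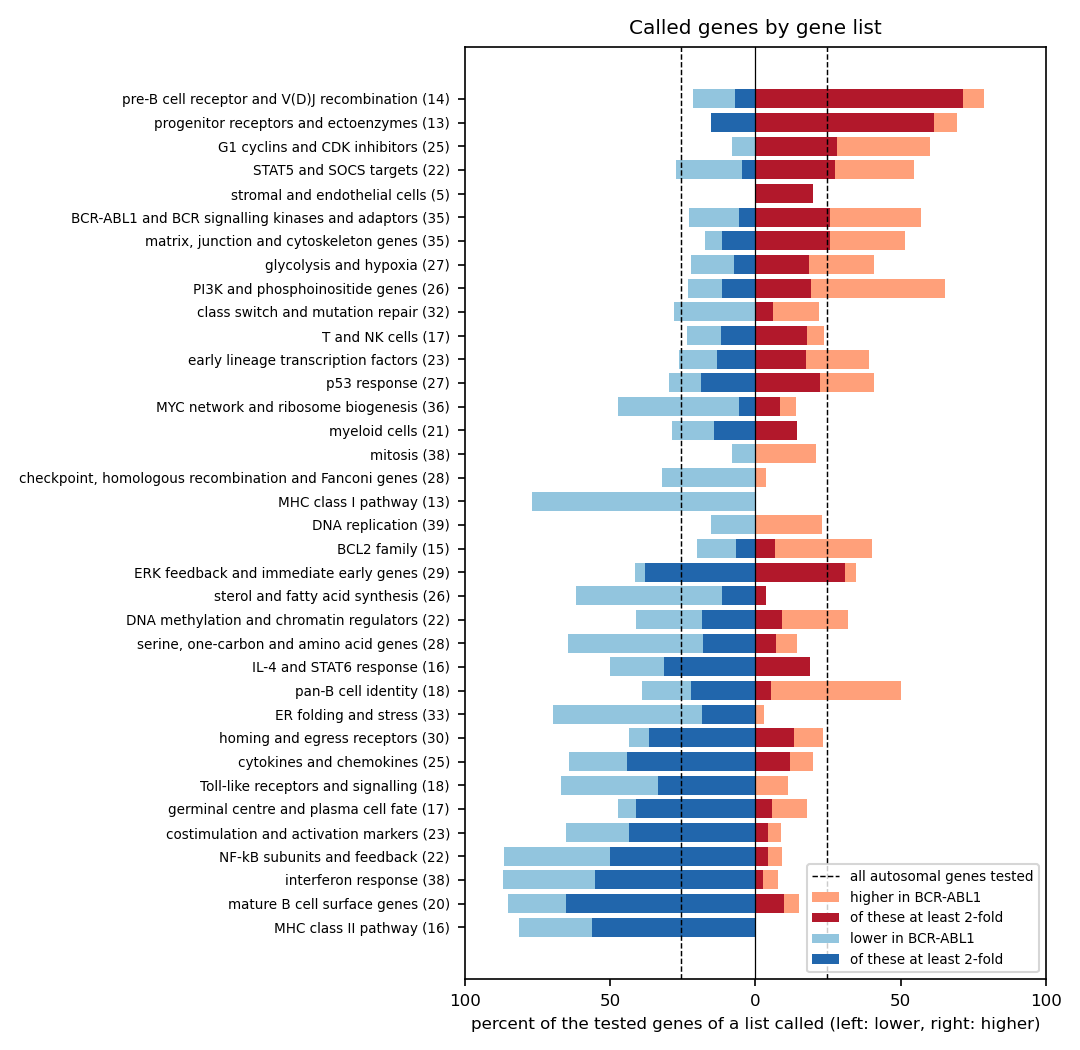
Share of the tested genes of each list (number in brackets, lists of at least 5 tested genes) called higher (right, red) or lower (left, blue) in the BCR-ABL1 GFP-positive arrays, with the part that differed by at least 2-fold in the darker shade and dashed lines at the shares of all 11851 autosomal genes (24.6% and 25.6%). The pre-B and progenitor lists lie at the top and the MHC class II, mature B cell and interferon lists at the bottom, and replication and mitosis genes show no 2-fold part.

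The largest differences outside these lists included the following genes. Above the floor in all 4 arrays, Scn4b, a sodium channel subunit, read 6437 and 6529.5 against 34.98 and 37.6 (7.48 ± 0.20), Myl10, a myosin light chain, 16017 and 15814 against 159.8 and 157 (6.65 ± 0.074), and Prkch, a protein kinase C, 5495 and 5377 against 89.3 and 60.96 (6.2 ± 0.16). The secreted factors Tgfb3 and Pgf read 4714 and 4679 against 49.1 and 58.1 (6.46 ± 0.11) and 4188 and 4360.4 against 90.5 and 96.6 (5.51 ± 0.10), and Gldc, the glycine decarboxylase, 3849.7 and 4032 against 85.3 and 74.8 (5.62 ± 0.18). With spleen at the floor, the matrix protein gene Ccn3 read 4574 and 4229 against 32 in both (at least 137-fold higher), the adhesion receptor Adgrg3 3676 and 3776 against 32 in both (at least 116-fold higher), the forkhead gene Foxc1 2195 and 2128 against 32 in both (at least 67.5-fold higher) and Trem1, a receptor of myeloid cells, 1464 and 1550.4 against 32 in both (at least 47.1-fold higher). Of these 10 genes, chosen for their large differences, 4 were at the floor in both spleen arrays and 6 above it.

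In the other direction, the adhesion molecule Alcam read 63.9 and 63.98 against 4626 and 5016 (-6.24 ± 0.12), the peptide hormone gene Adm 40.9 and 50.7 against 2606 and 2666 (-5.86 ± 0.13), the oxidase subunit Ncf1 127 and 131 against 5962 and 5495 (-5.47 ± 0.13) and the integrin chain Itgb3 71.9 and 75.5 against 3126 and 2874 (-5.35 ± 0.13). With BCR-ABL1 at the floor, Acod1, which makes itaconate in cells given LPS, read 32 in both against 3303 and 3274 (at least 103-fold lower). Tbx21, which encodes T-bet, read 32 in both against 1346 and 1415 (at least 43.1-fold lower), the ubiquitin-like gene Ubd 32 in both against 1170.4 and 1148 (at least 36.2-fold lower) and the IgM receptor gene Fcmr 32 in both against 1042 and 1026 (at least 32.3-fold lower). These 8 genes too were chosen for their large differences, and 4 of them were at the floor in both BCR-ABL1 arrays.

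**Figure D5:**
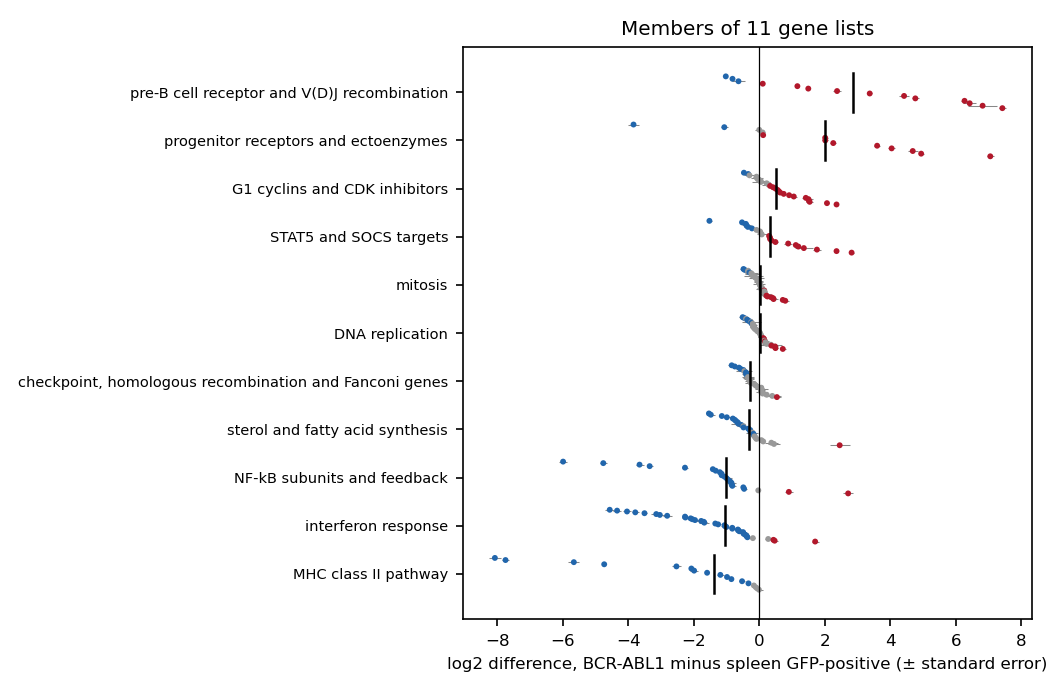
log2 difference of each tested member of 11 gene lists, BCR-ABL1 minus spleen GFP-positive, with standard errors, coloured red or blue where the adjusted p was under 0.05 and grey otherwise, and a black bar at the list's median (2.87 for the pre-B list, 0.023 for mitosis, -1.39 for MHC class II). Genes at the floor in 1 group are drawn at the value against the floor, which understates them.

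The same contrast of sources in the GFP-negative arrays was fitted beside it. Of the 1835 genes different by at least 2-fold, 1372 were called in the same direction between the GFP-negative arrays, 246 in the opposite direction and 217 were not called, where 78.3% of all autosomal genes were called. The difference itself, the interaction of source and fraction, passed for 8166 autosomal genes (68.9%) and for 1358 of the 1835. The precursor genes Dntt and Rag1 read 8026 and 7692 against 167 and 168 and 1007 and 939 against 69.1 and 44.01 in the GFP-negative arrays. Il7r read 3783 and 3729 against 4579 and 4553 there, and its interaction was 7.33 ± 0.14. Class II genes were also lower in GFP-negative BCR-ABL1 cells, with H2-Aa at 32 and 49.1 against 11634 and 11898. The NF-kB target Traf1 read 84.4 and 78.9 against 2624 and 2972 (interaction -0.89 ± 0.16). The cyclin Ccna2, which did not pass between the GFP-positive arrays, read 5363 and 5733 against 437 and 579.9 between the GFP-negative ones (interaction -3.4 ± 0.17).

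The spleen GFP-negative arrays stood apart in other respects. Their 2% trimmed mean signals before normalization were 499.7 and 479, against 591 to 596 in the other 6 arrays, and their summed myeloid and T and NK signals were 126249 and 122962 and 26488 and 24871. The part of these signals in the interaction was not tested. Without either of these arrays, the GFP-positive comparison called 7026 and 7026 genes, and in the 4 GFP-positive arrays alone 7447.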

How the data were processed

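Total RNA of 8 mouse samples, in 4 groups of 2, was hybridised to Affymetrix arrays. The authors deposited linear signal intensities for 45101 probe sets, and the submitters' processing notes name GCOS 1.3. Probe summarisation and scaling are not stated. Control probe sets (64) were dropped, the 8 arrays quantile normalized, values under 32 set to 32 and log2 taken. A probe set needed a mean log2 signal at or above the 40th percentile (a signal of 51.0). The one with 1 symbol and the highest mean log2 signal, called the brightest, stood for its gene, giving 12223 genes. Those on X and Y (349) or with no known chromosome (23) entered the fit but no count, which left 11851. All arrays were fitted with limma 3.58.1 in R 4.3.3 (lmFit, eBayes with trend, 1 mean per group, 4 residual degrees of freedom), with Benjamini-Hochberg adjustment over all 12223 genes. An exact test of 2 arrays against 2 cannot go below p = 0.333, so calls rest on the model. Intensities give no read depth.

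The 38 gene lists hold 976 genes: 834 were tested, 69 lay under the filter, 69 had no probe set of their own and 4 were on X, Y or no known chromosome. The comparison, its lists and its rules were chosen with earlier results of these data known. Genes that may be named were list members, the 25 largest differences each way above the floor, and the 20 each way with the brightest signal against a group at the floor. Those printed were picked from them with values known. The reporter's own gene is left out. The pipeline was tested on simulated data. Alternatives were the deposited scale, a shift to the same median, other floors and filters, log2 of the value plus 32, other variance models, array weights, other rules for probe sets, the replicate block, the 4 GFP-positive arrays alone, leaving out each array, and other thresholds. Promoter sequences come from RefSeq (GRCm38.p6), and figures were drawn with matplotlib 3.10.9.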

Additional observations from a re-analysis of the deposited data

Results flagged for a closer look

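The difference between BCR-ABL1 and spleen was not the same in the GFP-positive and the GFP-negative fractions for 8166 autosomal genes, by the interaction of source and fraction in limma (n = 2 arrays in each of 4 groups). Of the genes named in the text, 28 were called in opposite directions in the 2 fractions, with the interaction called as well. Their log2 differences, BCR-ABL1 minus spleen, follow with the GFP-positive value first.

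Genes higher in BCR-ABL1 among GFP-positive cells and lower among GFP-negative cells included the precursor and trafficking genes Il7r 7.05 and -0.28 (interaction 7.33 ± 0.14), Foxo1 1.5 and -0.18 (interaction 1.67 ± 0.086), Ebf1 0.45 and -0.40 (interaction 0.85 ± 0.075), Blk 1.1 and -0.25 (interaction 1.34 ± 0.063), Tec 1.72 and -1.04 (interaction 2.76 ± 0.10), Cxcr4 1.19 and -1.1 (interaction 2.29 ± 0.11), Itga4 1.16 and -0.46 (interaction 1.62 ± 0.057) and Cd5 2.15 and -2.75 (interaction 4.91 ± 0.24). Interferon receptor and response genes were Ifngr1 1.71 and -0.72 (interaction 2.43 ± 0.15), Ifnar1 0.43 and -0.64 (interaction 1.07 ± 0.12), Ifit3 0.47 and -4.52 (interaction 4.99 ± 0.14) and Ifitm1 5.65 and -0.40 (interaction 6.05 ± 0.17). Others were Anxa1 4.04 and -0.67 (interaction 4.71 ± 0.14), Sdc1 1.32 and -1.04 (interaction 2.36 ± 0.11), Sesn1 1.05 and -0.70 (interaction 1.75 ± 0.10) and Tnfrsf18 1.43 and -0.73 (interaction 2.16 ± 0.13). Genes of myeloid, T and NK cells were Lyz1 3.51 and -4.24 (interaction 7.76 ± 0.44), Lyz2 2.72 and -4.93 (interaction 7.64 ± 0.24), Lat 2.74 and -1.59 (interaction 4.34 ± 0.18) and Klrd1 3.11 and -4.64 (interaction 7.74 ± 0.20).

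Genes lower in BCR-ABL1 among GFP-positive cells and higher among GFP-negative cells were those of sterol synthesis, Lss -1.54 and 1.33 (interaction -2.86 ± 0.12), Mvd -1.48 and 0.77 (interaction -2.25 ± 0.16) and Fdps -0.81 and 1.21 (interaction -2.02 ± 0.068), and of amino acid metabolism, Cth -2.77 and 3.47 (interaction -6.23 ± 0.17), Psph -1.02 and 0.76 (interaction -1.78 ± 0.10) and Shmt2 -0.62 and 0.54 (interaction -1.16 ± 0.081). The last were Batf -2.96 and 0.49 (interaction -3.45 ± 0.25) and Rrp12 -1.16 and 0.75 (interaction -1.92 ± 0.18). The spleen GFP-negative arrays held summed myeloid signals of 126249 and 122962 and summed T and NK signals of 26488 and 24871, against 1764 and 1852 and 4526 and 4723 in the spleen GFP-positive arrays, and their part in these differences was not tested.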

How the results depend on the processing

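The main count of 5955 (2921 higher, 3034 lower) became 1835 (996 higher, 839 lower) with a 2-fold minimum. It ran from 4511 to 7026 without single arrays (higher 2320 to 3290, lower 2191 to 3743), and the count at 2-fold from 1820 to 1855. It was 7447 in the 4 GFP-positive arrays alone and 7310 with array weights. The interaction count ran from 7327 to 8708 without single arrays. With the replicate number as a block, 6517 genes were called for the comparison and 8592 for the interaction. No label says that the replicate numbers pair samples, and the deviations of same-numbered GFP-positive arrays correlated at 0.286 over 1 comparison of 2 pairs, so the block is given only here. With deposited values the count was 5966, and with arrays shifted to the same median 5981 (2744 higher, 3237 lower).

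Of 255 named genes called, 252 kept direction and call in every alternative in which they were tested. The exceptions were Cd79b, Igll1 and Pax5. Nolc1, whose probe sets were called in opposite directions as given above, was named but is not among the 255. The other thresholds were not applied to single genes. Igll1 turned to 3.15 with the mean of its probe sets. Of 5697 autosomal genes with several tested probe sets, 3170 were called. Of these 3170, 294 had another probe set called in the opposite direction. Of 76 list counts, 56 stayed within 1.5 times their value in every alternative other than the thresholds. Small counts that did not, beside those given above, were the higher genes of the Toll-like receptor (0 to 1), costimulation (4), germinal centre (1 to 6), sterol (2 to 4), endoplasmic reticulum (2) and checkpoint (0 to 3) lists and the lower genes of the BCL2 (5), G1 (1), T and NK (1) and erythroid (0 to 1) lists. The cause of these shifts was not tested. With 2 arrays a group, the number of arrays limits the precision.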

Other observations

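Other large differences included genes better known from other tissues. Higher in the BCR-ABL1 arrays were P2rx3, an ion channel of sensory neurons, at 2765 and 2772 against 70.5 and 75.7 (5.24 ± 0.11), Crhbp, which binds a stress hormone, at 2209.7 and 2300.4 against 45.4 and 56.5 (5.48 ± 0.14), and Clgn, a chaperone of germ cells, at 4141 and 4112 against 99.97 and 97.8 (5.38 ± 0.10). Atp1b1, a subunit of the sodium pump, read 10202 and 10085 against 156 and 175 (5.94 ± 0.061). Epb41l4b, a cytoskeletal linker, read 3831 and 3828 against 58.1 and 72.01 (5.89 ± 0.13), and Myh10, a non-muscle myosin, 1509.8 and 1493 against 43.7 and 35.5 (5.25 ± 0.24). With spleen at the floor, the calcium channel gene Trpc6 read 1105 and 1044 against 32 in both (at least 33.6-fold higher) and Efhd1 1793 and 1746 against 32 in both (at least 55.3-fold higher). Lower in the BCR-ABL1 arrays were Timd2, a receptor of the TIM family, at 32 in both against 1691 and 1806 (at least 54.6-fold lower), the sorting receptor Sorl1 at 32 in both against 1478 and 1570.2 (at least 47.6-fold lower), the protease Adam19 at 35.04 and 48.3 against 2204 and 2169 (-5.73 ± 0.15) and Ms4a4c, a relative of Ms4a1, at 69.5 and 76.95 against 3771 and 3486 (-5.63 ± 0.14). These 12 genes were chosen for their large differences.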
